A study of Mus musculus with 12 samples.

Results

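Transcripts that mark the theca, the pericytes and the stroma around the mouse follicle were examined in RNA-seq of granulosa cells. There are 10 such transcripts, chosen by symbol, namely Cyp17a1, Insl3, Pdgfra, Pdgfrb, Col1a1, Col1a2, Col3a1, Dcn, Mgp and Acta2. All 10 are among the 29101 genes listed for mural granulosa cells (MGCs, the cells that line the follicle wall), and 9 are among the 33137 genes listed for cumulus cells, the granulosa cells that surround the oocyte. Insl3 was analysed in MGCs only. The cells came from female mice of about 3 weeks, primed with equine chorionic gonadotropin (eCG) to grow follicles and given human chorionic gonadotropin (hCG), a hormone with luteinizing hormone activity, 2 h before collection. The controls were WT C57/BL6 mice. The other mice were Sphk1-/-; Sphk2 fl/fl; Fshr-Cre (Sphk1/2gc-/-), in which the sphingosine kinase Sphk1 is absent from all cells, so also from theca and stroma, and Sphk2 is deleted by a Cre under the Fshr promoter, which is active in granulosa cells. Each of the 4 groups has 3 libraries. The number of mice behind a library, and whether controls were littermates, are not given in the sources used here, so p-values measure the spread between these libraries.

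The theca is the layer of steroid-producing cells, fibroblasts and vessels outside the basement membrane of the follicle. It makes androgens in response to luteinizing hormone, and granulosa cells turn these into estrogens. CYP17A1 is the enzyme that makes androgens and INSL3 is a peptide hormone of theca cells. PDGFRA and PDGFRB are receptor tyrosine kinases for platelet-derived growth factors (PDGFs), the first best known from fibroblasts and the second from pericytes and smooth muscle. COL1A1 and COL1A2 are the chains of type I collagen, COL3A1 is the chain of type III collagen, DCN (decorin) binds collagen fibrils, MGP (matrix Gla protein) restrains calcification, and ACTA2 is the actin of smooth muscle.

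The start regions of Col1a2 and Col3a1 are shown because these collagens had, with Col1a1, the largest differences between the WT cell types on the log2(FPKM + 1) scale, which shrinks those of low transcripts such as the PDGF receptors. RefSeq promoters (GRCm38.p6) were at hand for 5 of the 10 genes, Insl3, Pdgfra, Col1a2, Col3a1 and Acta2. The sequences run 5′ to 3′ on the gene's strand and stop where an annotated exon begins, with matches to GGGCGG (a GC box) or TATAAA in capitals.
Col1a2, chr6:4505370-4505492, plus strand: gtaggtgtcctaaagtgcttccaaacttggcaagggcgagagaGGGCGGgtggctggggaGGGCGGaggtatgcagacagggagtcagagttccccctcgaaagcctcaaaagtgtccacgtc
Col3a1, chr1:45311288-45311537, plus strand: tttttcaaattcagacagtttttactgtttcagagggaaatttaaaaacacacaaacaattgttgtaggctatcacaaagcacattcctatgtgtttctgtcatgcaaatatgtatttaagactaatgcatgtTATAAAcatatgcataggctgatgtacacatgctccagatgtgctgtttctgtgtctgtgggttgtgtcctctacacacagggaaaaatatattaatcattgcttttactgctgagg
The GC boxes of Col1a2 begin 205 and 188 bases before its RefSeq start, and the TATAAA of Col3a1 begins 117 bases before its start. In the 250 bases before a start, searched on both strands, GGGCGG occurred in 32.7% and TATAAA in 12.4% of 32851 promoters. CCAAT (33.8% of promoters) was found for Col1a2, 109 bases before its start, and AAGGTCA (4.08%) for none of the 5 genes. The CArG motif, with 1 base other than A or T allowed in its core, was found in 8.59% of promoters, for Acta2 at 84 and 34 bases and for Col1a2 at 228 bases. Both matches of Acta2 and the CCAAT of Col1a2 lie inside annotated exons, which cover 217 and 127 of the 250 bases of these genes. These matches describe letters and not binding.

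The values are FPKM, fragments scaled to exon length and library size, so levels can be set side by side between genes. The 12 libraries held 16100365 to 19761604 reads, recovered from the steps between low values, and a floor of 3 reads was used for detection. The targeted transcripts did not separate the genotypes. Sphk1 was at 0.460 to 1.88 FPKM in WT MGCs and 0.104 to 0.557 FPKM in MGCs labelled Sphk1/2gc-/-, but at 0.0699 to 0.0954 FPKM in WT cumulus cells and 0.0778 to 0.557 FPKM in cumulus cells labelled Sphk1/2gc-/-. Sphk2 lay between 4.51 and 6.29 FPKM in all MGCs, and gene-level values do not show whether exons 4 and 6, which carry the loxP sites, are missing. The groups are therefore called by their labels, and every direction below rests on those labels. Library 3 of the labelled knockout MGCs stood apart, correlating at 0.912 to 0.939 with the rest of the MGCs, and its 4 cumulus expansion transcripts summed to 187 FPKM against 1882 and 2191 in libraries 1 and 2. Library 3 of the WT cumulus cells had 27541 genes above 0, against 18788 to 19289 in the other cumulus libraries, and the reason was not tested. The 8 granulosa transcripts examined were above 0 in every library, with sums of 8863 to 15079 FPKM in MGCs and 2548 to 4891 FPKM in cumulus cells.

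In WT MGCs the transcripts of the follicle wall spanned levels from near detection to more than 100 FPKM. Cyp17a1 was highest at 109 ± 53.2 FPKM (mean ± SD, n = 3), followed by Acta2 at 51.8 ± 2.72 and Mgp at 41.0 ± 4.13. The collagen transcripts came next, at 32.1 ± 18.1 for Col1a1, 26.1 ± 11.7 for Col3a1 and 23.5 ± 11.1 FPKM for Col1a2, and their ranges overlapped each other and, for Col1a1 and Col3a1, that of Mgp, and for Col1a1 also that of Acta2. Dcn was at 7.73 ± 0.803 FPKM, Pdgfra at 3.17 ± 0.611 and Pdgfrb at 2.19 ± 0.258, and the ranges of these 3 did not overlap. Insl3 was at 0.159 ± 0.146 FPKM, with 0 to 3 reads per WT library. In WT cumulus cells the order differed in the middle: Cyp17a1 at 17.9 ± 8.38, Acta2 at 14.0 ± 9.00 and Mgp at 13.2 ± 2.74 FPKM overlapped each other, and Dcn at 4.13 ± 3.45 FPKM stood above Col3a1 at 1.14 ± 0.698, Col1a2 at 0.588 ± 0.469 and Col1a1 at 0.449 ± 0.249 FPKM in mean. Pdgfra at 0.130 ± 0.0398 and Pdgfrb at 0.0776 ± 0.0231 FPKM were the lowest, and their ranges overlapped.

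**Figure D1:**
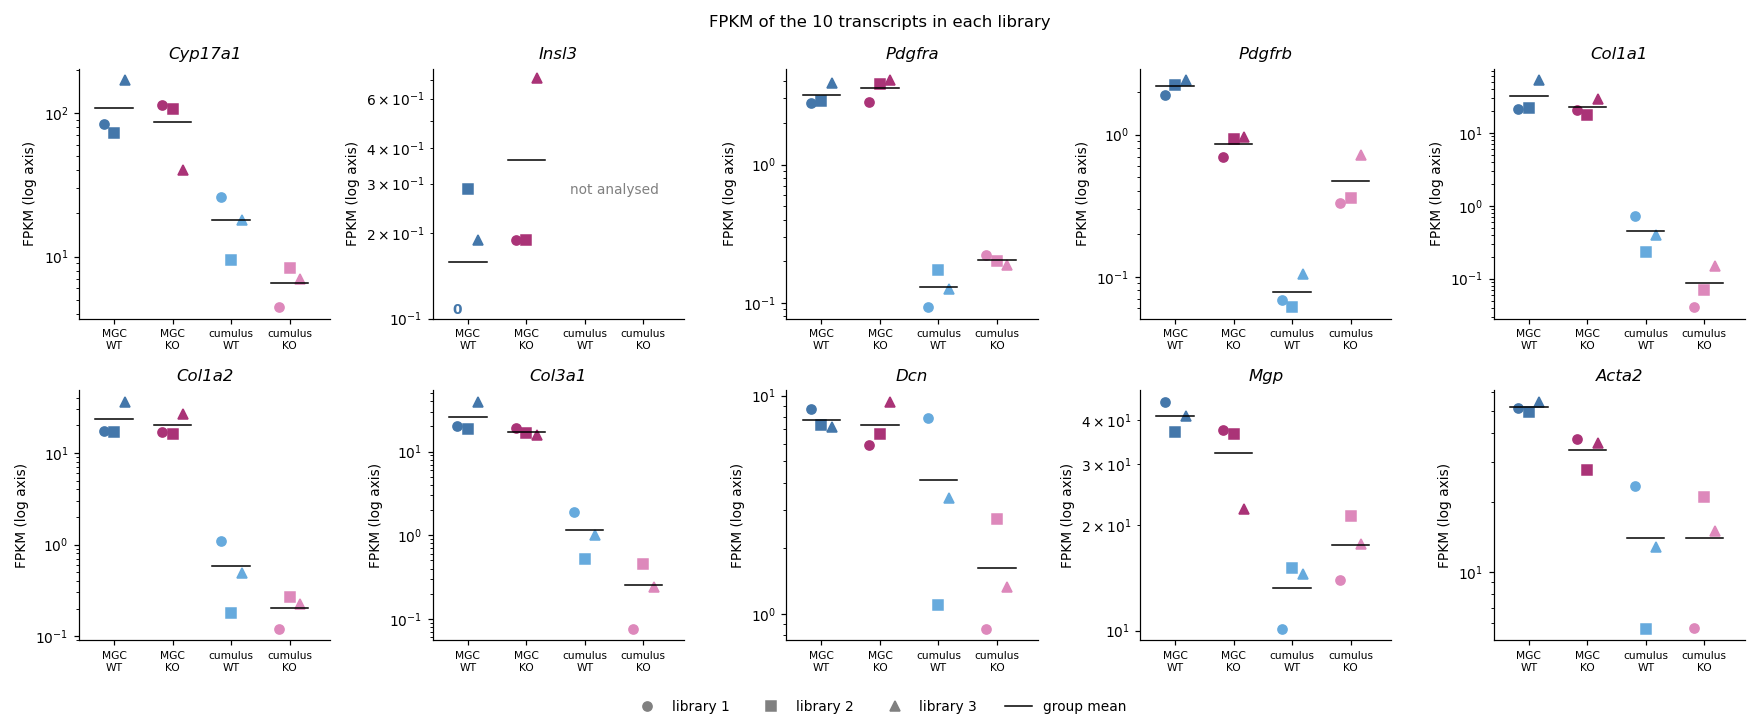
FPKM of each transcript (log axis) in every library of MGCs and cumulus cells, WT and labelled knockout (KO); the symbols stand for libraries 1, 2 and 3, the line for the group mean, and a 0 is written at the foot of the panel. Pdgfrb lies at 1.91 to 2.43 FPKM in WT MGCs and 0.700 to 0.959 in KO MGCs, but at 0.0609 to 0.104 in WT and 0.330 to 0.723 in KO cumulus cells.

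WT cumulus cells held less of these transcripts than WT MGCs. Each of the 9 measured in both cell types was lower, by amounts that ran from Col1a1 at 1.40% of the MGC mean to Dcn at 53.5%. Col1a2 stood at 2.50%, Pdgfrb at 3.54%, Pdgfra at 4.10% and Col3a1 at 4.39%, and these 5 were all below 5% of their MGC level. Cyp17a1 at 16.4%, Acta2 at 27.0% and Mgp at 32.3% kept more of theirs. The libraries of the cell types overlapped for Dcn alone, whose WT cumulus library 1 stood at 102% of the WT MGC mean while library 2 stood at 14.2%.

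Of all transcripts tested, 55.7% were lower in WT cumulus cells without overlap and 82.1% did not overlap in either direction (26.5% higher). In limma all 9 were called as lower in WT cumulus cells (adjusted p of 0.05 or less and a fold change of 2 or more). For Pdgfra, Pdgfrb and Col1a1 both cumulus groups were under 0.5 FPKM. These genes entered the test through MGCs alone, which favours a lower value, so their calls add little. Of the 15869 transcripts tested 48.7% were called, 33.3% as lower. The log2 difference of FPKM + 1 was −4.40 for Col1a1 (SE 0.304, limma adjusted p = 8.84e-08) and −1.0 for Dcn (SE 0.419, limma adjusted p = 0.0455), with the other 7 between −3.90 and −1.56. The median over the 9 was −2.01, against −0.54 over all transcripts. It is not stated whether the tables of the cell types were scaled together, and the scaling moved the whole distribution. As deposited, calls of a higher level numbered 2445 and of a lower level 5288, against 3643 and 3242 after quantile normalization and 4730 and 2491 after scaling by the median, where the median of all transcripts moved to −0.03 and 0.26. The 9 transcripts kept a lower value under both, and 7 and 6 of them kept the call. Dcn (−0.38 and −0.20 log2) and Pdgfrb (−0.92 and −0.76) lost it under both, and Mgp under the second (−1.62 and −0.78). In bulk samples, fewer cells of a type and less RNA per cell cannot be told apart.

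**Figure D2:**
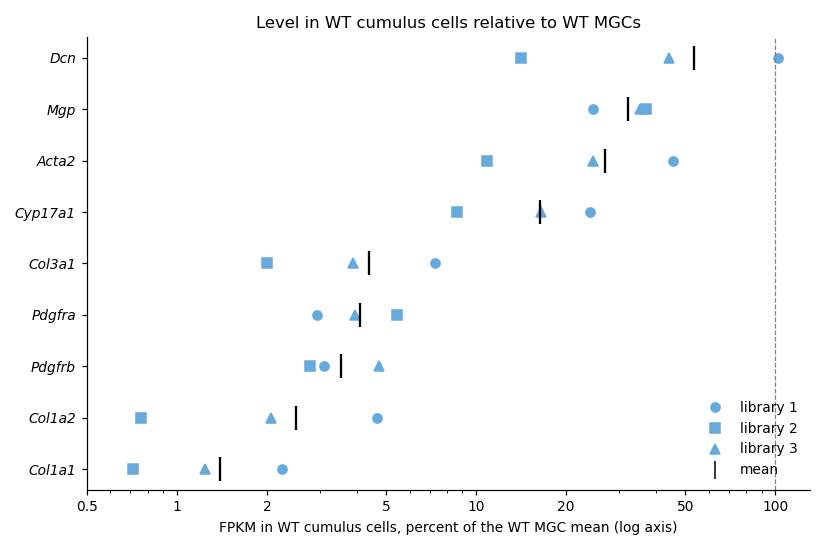
Level of 9 transcripts in each WT cumulus library (symbols for libraries 1 to 3, vertical bar for the mean) as a percent of the WT MGC mean, on a log axis; the dashed line is 100%. The PDGF receptors and collagens lie at 0.712% to 7.28%, and library 2 is the lowest for all but Pdgfra and Mgp.

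The transcripts did not fall by a common factor between the cell types, so their proportions within a library differed. Cyp17a1 over Col1a1 was 3.21 to 3.92 in WT MGCs and 36.4 to 45.3 in WT cumulus cells. Dcn over Col1a1 was 0.136 to 0.402 and 4.79 to 11.0, and Acta2 over Col1a1 was 1.03 to 2.39 and 24.7 to 32.7. In each of these ratios the lowest cumulus library lay above the highest MGC library. Other ratios moved less. Col1a1 over Col1a2 was 1.24 to 1.46 in WT MGCs and 0.654 to 1.28 in WT cumulus cells, and Pdgfra over Pdgfrb had medians of 1.45 and 1.37.

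Cyp17a1 (chromosome 19, 46667165 to 46673172, minus strand), the androgen-making enzyme, was the theca transcript with a change in cumulus cells. Its level was 26.2, 9.45 and 18.1 FPKM in WT cumulus libraries 1, 2 and 3, and 4.44, 8.34 and 7.03 FPKM in those labelled Sphk1/2gc-/-. The highest labelled knockout library lay just below the lowest WT library, so the groups did not overlap. It fell by 1.24 on the log2(FPKM + 1) scale (SE 0.349, limma adjusted p = 0.0372), and the labelled knockout mean was 36.9% of the WT mean. It was the only member called of the 6 tested in cumulus cells, where 8.04% of all 12205 transcripts were called, 3.85% as lower and 4.19% as higher. The call rests on a thin margin: it was kept without WT library 2 (−1.62, limma adjusted p = 0.0173) but lost in each of the other 5 fits that left out a library, where the value ran from −1.41 to −0.93 and the adjusted p from 0.0544 to 0.114. It was also lost with the library number as a block (limma adjusted p = 0.0815) and without a filter on low values (limma adjusted p = 0.136).

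In MGCs Cyp17a1 was at 84.4, 72.9 and 170 FPKM in WT, against 114, 108 and 40.3 FPKM in the labelled knockout libraries. The genotypes overlapped, with library 3 the highest of WT and the lowest of the labelled knockout. The log2 difference was −0.36 (SE 0.475, limma adjusted p = 0.866, 95% interval −1.49 to 0.77). Without library 3 of each genotype it turned to 0.49 (SE 0.0876, limma adjusted p = 0.0307), under the fold change limit. Insl3 (chromosome 8, 71689214 to 71690575) had 0, 3 and 2 reads in WT MGCs and 2, 2 and 8 in the labelled knockout, so 5 of the 6 libraries were at or under the floor and no fold is given. It shares exon sequence with Jak3, so those reads are not assigned with certainty. The peptide hormone of theca was thus near detection in libraries where the theca enzyme was at 40.3 FPKM or more.

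Steroidogenic transcripts that theca shares with granulosa cells were read beside Cyp17a1. In cumulus cells 3 of 4 were called as lower, where 3.85% of all transcripts were. Cyp11a1, which starts steroid synthesis from cholesterol, went from 16.3, 5.86 and 13.5 FPKM to 1.33, 3.20 and 0.608 FPKM (−2.26 log2, limma adjusted p = 0.00869). Lhcgr, the receptor for luteinizing hormone, went from 18.7, 7.71 and 12.6 to 1.93, 4.62 and 2.82 FPKM (−1.74 log2, limma adjusted p = 0.00933), and Hsd3b1 fell by 2.36 (limma adjusted p = 0.00035). Star, which carries cholesterol into mitochondria, was at 19.4 to 37.1 and 19.8 to 54.0 FPKM. Hsd3b1 was also called in the difference between cell types (−2.25 log2, limma adjusted p = 0.0135). In MGCs Cyp11a1 was at 267 to 520 FPKM in WT and 58.2 to 181 in the labelled knockout (−1.60 log2, limma adjusted p = 0.349). Star was at 521 to 1080 and 47.1 to 436 FPKM there (−1.97 log2, limma adjusted p = 0.547). Both were lower without overlap, beside 9.17% of all transcripts tested in MGCs, while Lhcgr and Hsd3b1 overlapped. Limma called 0 of the 4 in MGCs (1 at an unadjusted p under 0.05). Without library 3 of each genotype it called Star as lower (−1.24 log2, limma adjusted p = 0.00874), where 1.85% of all transcripts were. WT cumulus library 2, the lowest of its group for Cyp17a1, was also the lowest for Cyp11a1, Lhcgr and Star, as for 25.2% of all tested transcripts. For Hsd3b1 library 1 was the lowest, at 757 FPKM against 837 and 897 in libraries 2 and 3.

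The ratio of the PDGF receptors to each other differed between the genotypes in both cell types. In MGCs Pdgfrb alone was lower in the labelled knockout without overlap, and in cumulus cells both receptors were higher without overlap. Pdgfrb (chromosome 18, 61045150 to 61085061) was at 1.91, 2.24 and 2.43 FPKM in the MGCs of WT, against 0.700, 0.927 and 0.959 FPKM in the labelled knockout MGCs, which is 39.3% of the WT mean. Those values rest on 173 to 224 reads per WT library and 65 to 95 reads per labelled knockout library. The genotypes did not overlap, as was so for 16.9% of all transcripts tested in MGCs, 9.17% with a lower and 7.72% with a higher level. The log2 difference was −0.78 (SE 0.158), but over 15279 transcripts the limma adjusted p was 0.202 and it was not called. Without library 3 of each genotype it was −0.76 with a limma adjusted p of 0.0306, under the fold change limit.

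In cumulus cells Pdgfrb went the other way. It had 6, 6 and 10 reads in the WT libraries (0.0680, 0.0609 and 0.104 FPKM) and 34, 39 and 76 reads in the libraries labelled Sphk1/2gc-/- (0.330, 0.360 and 0.723 FPKM). The lowest labelled knockout library was above the highest WT library, and the mean was 6.07-fold that of WT. Both groups were under the 0.5 FPKM needed for the test; with no filter the log2 difference was 0.44 (limma adjusted p = 0.125). In knockout-labelled libraries the receptor in cumulus cells stood at 54.6% of its MGC level, with overlapping ranges, where in WT it stood at 3.54%.

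The opposite directions were tested in 1 model of the 12 libraries. The knockout difference in cumulus cells minus that in MGCs was 1.22 for Pdgfrb (SE 0.191, limma adjusted p = 0.00987, 95% interval 0.80 to 1.63). Pdgfrb was the only one of 9 members called in this test, where 3.93% of 15869 transcripts passed, 2.45% with a positive and 1.48% with a negative value. It entered the test through its MGC level alone, as both cumulus groups were under 0.5 FPKM. The value stayed above 0 in all 19 alternatives in which Pdgfrb was tested, between 1.10 and 3.82, with limma adjusted p of 0.0042 to 0.0337. The highest values were 2.89 with a pseudocount of 0.1 and 3.82 with limma-voom on reads.

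Pdgfra (chromosome 5, 75152292 to 75198215) overlapped between the genotypes in MGCs. There it was at 2.77, 2.87 and 3.88 FPKM in WT, against 2.81, 3.83 and 4.08 FPKM in the labelled knockout, with a log2 difference of 0.13 (SE 0.190, limma adjusted p = 0.882, 95% interval −0.32 to 0.58). Its exons overlap those of Gm42802, Gm42803 and Mir7025, and the library kit does not mark strand. In cumulus cells it had 15, 31 and 22 reads in WT and 42, 40 and 36 in the labelled knockout, without overlap, at 0.0929 to 0.222 FPKM, and the labelled knockout mean was 157% of WT. The ratio of Pdgfra to Pdgfrb was 1.28 to 1.60 in WT MGCs and 4.01 to 4.26 in labelled knockout MGCs. In cumulus cells that ratio moved in the opposite sense, from 1.20 to 2.82 in WT to 0.259 to 0.675 in the labelled knockout.

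Among the ligands of these receptors, Pdgfa, which binds PDGFRA, rose in cumulus cells. It was at 1.43, 2.37 and 3.60 FPKM in WT, against 15.8, 34.5 and 38.4 FPKM in the labelled knockout cumulus libraries, a log2 difference of 3.09 (SE 0.35, limma adjusted p = 0.00152). In MGCs it was at 8.88, 10.4 and 7.66 FPKM and 22.0, 21.7 and 15.0 FPKM, with no overlap and a log2 difference of 1.03 that was not called (limma adjusted p = 0.159). The difference between cell types was 2.06 for Pdgfa (limma adjusted p = 0.0309) and 1.38 for Pdgfb (limma adjusted p = 0.0345), the ligand of both receptors that vessels use to attract pericytes. In WT MGCs Pdgfb stood at 11.9, 13.9 and 7.89 FPKM, against 5.50, 8.82 and 5.84 in the labelled knockout, and at 0.937 to 1.73 and 2.73 to 3.10 FPKM in WT and labelled knockout cumulus cells.

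Pdgfd, a ligand of PDGFRB, was at 7.33 to 7.59 FPKM in WT MGCs and 3.20 to 4.03 in the labelled knockout (−0.87 log2, limma adjusted p = 0.147). It was at 1.13 to 1.60 and 0.959 to 1.46 FPKM in cumulus cells. Pdgfc lay between 4.32 and 7.83 FPKM in all 12 libraries and was called in no comparison. Of the 4 ligands, 1 was called as higher and 0 as lower in cumulus cells, beside 4.19% and 3.85% of all transcripts. In MGCs limma called 0 of the 4, with 3 at an unadjusted p under 0.05. Without library 3 of each genotype it called Pdgfa as higher (1.11 log2, limma adjusted p = 0.00706), where 1.24% of all transcripts were.

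**Figure D3:**
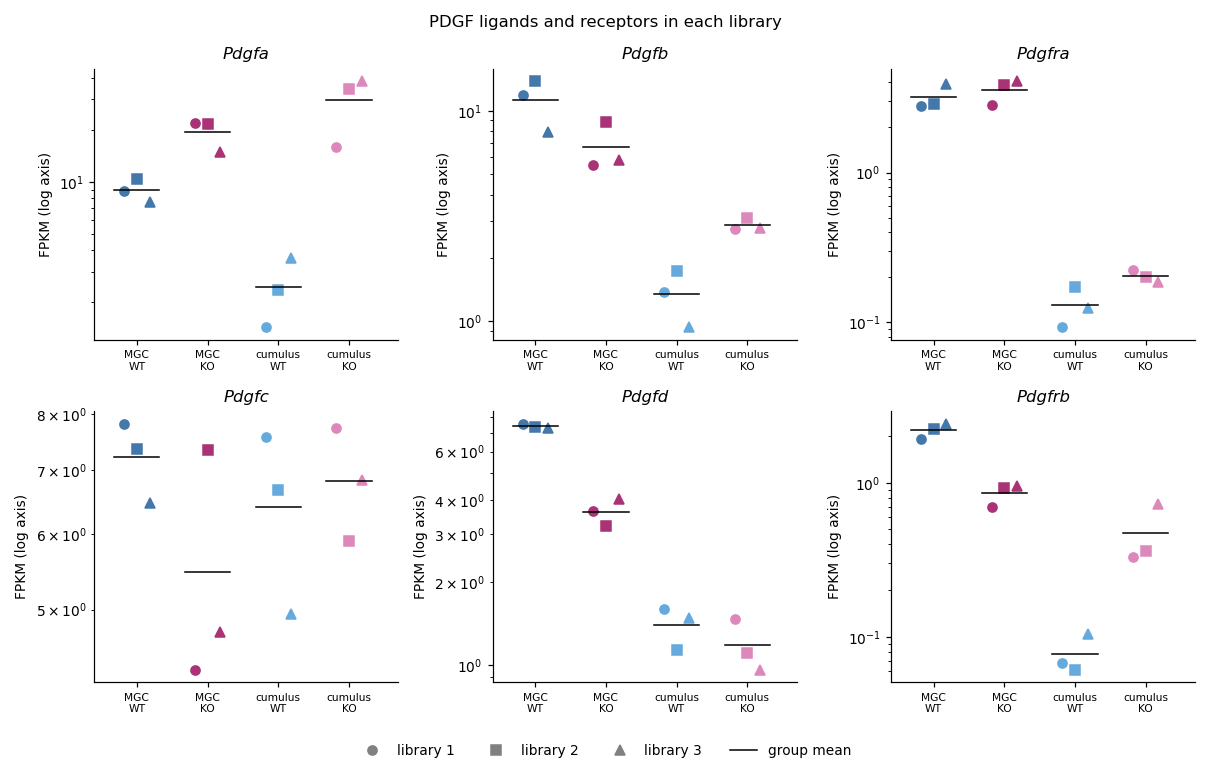
FPKM (log axis) of the ligands Pdgfa, Pdgfb, Pdgfc and Pdgfd and the receptors Pdgfra and Pdgfrb in each library, with symbols for libraries 1 to 3 and a line for the group mean. Pdgfa is at 1.43 to 3.60 FPKM in WT and 15.8 to 38.4 in KO cumulus cells, and Pdgfrb is lower in KO MGCs and higher in KO cumulus cells.

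The fibrillar collagens overlapped between the genotypes in MGCs. Col1a1 (chromosome 11, 94936224 to 94953042) was at 21.5, 21.8 and 53.1 FPKM in the MGCs of WT, against 20.6, 17.5 and 28.9 in the labelled knockout. Col1a2 (chromosome 6, 4504814 to 4541544) was at 17.4, 16.8 and 36.3 and at 17.0, 16.1 and 27.0 FPKM. Library 3 was the highest of its group for both chains in both genotypes. Col3a1 (chromosome 1, 45311538 to 45349706) was at 20.2, 18.5 and 39.5 FPKM in WT, against 18.9, 16.9 and 15.7 FPKM in the labelled knockout, so that library 3 was the highest in WT and the lowest in the labelled knockout. Col3a1 shares exon sequence with Gm47302. The log2 differences were −0.41 for Col1a1, −0.17 for Col1a2 and −0.50 for Col3a1, with limma adjusted p of 0.781, 0.923 and 0.646. Without WT library 3 those of the type I chains turned to 0.01 and 0.18, and that of Col3a1 was −0.17.

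In cumulus cells the collagens were scarce, and lower in mean in the labelled knockout libraries. Col1a1 had 76, 27 and 46 reads in WT and 5, 9 and 19 in the labelled knockout, that is 0.719, 0.229 and 0.399 against 0.0404, 0.0694 and 0.151 FPKM. The groups did not overlap, and the labelled knockout mean was 19.4% of WT, but both lay under the limit for the test. Col3a1 was at 1.90, 0.521 and 1.02 FPKM (300, 92 and 175 reads) in WT and 0.0757, 0.449 and 0.239 FPKM (14, 87 and 45 reads) in the labelled knockout. Its groups did not overlap either, though the nearest libraries had 92 and 87 reads, and the log2 difference was −0.73 (SE 0.240, limma adjusted p = 0.0603). With limma-voom on the recovered reads it was −2.26 (limma adjusted p = 0.0173) and Col3a1 was called, while Cyp17a1 could not enter that fit. Col1a2 overlapped, at 1.10, 0.179 and 0.486 against 0.120, 0.265 and 0.222 FPKM (−0.36 log2, limma adjusted p = 0.244).

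Non-overlap with a lower level was thus found in cumulus cells for Cyp17a1, Col1a1 and Col3a1 of the 9 transcripts, and with a higher level for Pdgfra and Pdgfrb. Of all transcripts tested in cumulus cells, 42.3% did not overlap, 24.1% with a lower and 18.2% with a higher level. WT cumulus library 1 was the highest of its group for 6 of the 9 transcripts and library 2 the lowest for 7, as they were for 31.9% and 25.2% of all tested transcripts. Among the labelled knockout cumulus libraries, library 1 was the lowest for 8 of the 9 (40.4% of all tested transcripts).

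The transcripts that fold, trim and cross-link collagen were described beside it. In cumulus cells 1 of 14 tested was called as higher and 1 as lower, beside 4.19% and 3.85% of all transcripts. Lox, an enzyme that cross-links collagen, was at 6.90, 3.74 and 4.85 FPKM in WT, against 15.7, 25.9 and 20.6 FPKM in the labelled knockout (1.82 log2, limma adjusted p = 0.00263). Sparc, a collagen-binding protein of the matrix, was at 9.99, 4.83 and 7.37 and at 2.55, 3.05 and 2.62 FPKM (−1.12 log2, limma adjusted p = 0.0118). Lox was also the 1 of 17 called in the test of the difference between cell types (2.38 log2, limma adjusted p = 0.016), with 13.2, 14.6 and 6.44 FPKM in WT MGCs and 8.82, 7.08 and 5.56 in the labelled knockout. Serpinh1, the collagen chaperone, was at 471 to 621 FPKM in WT MGCs, 327 to 455 in the labelled knockout MGCs and 4.04 to 10.2 in cumulus cells. P4hb and Plod2, enzymes of the endoplasmic reticulum, were at 377 to 725 and 138 to 239 FPKM in MGCs and at 133 to 228 and 50.6 to 88.5 in cumulus cells. In MGCs limma called 0 of 17 by genotype, with 4 at an unadjusted p under 0.05. There 5 of the 17 (Loxl2, P4ha3, Pcolce, Serpinh1 and Sparc) were lower in the labelled knockout without overlap and 0 higher. Of all transcripts tested in MGCs, 9.17% were lower and 7.72% higher. In cumulus cells 3 of the 17 were lower and 5 higher without overlap, beside 24.1% and 18.2% of all transcripts tested.

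Of the matrix proteins in cumulus cells, Dcn was lower in mean in the labelled knockout (39.5% of WT), as Col1a2 was (34.4%), and Mgp was not (133%). Dcn (chromosome 10, 97479609 to 97518143) was at 7.88, 1.10 and 3.41 FPKM in WT cumulus cells and 0.855, 2.71 and 1.33 in the labelled knockout. Its 3 WT libraries spread so widely that the groups overlapped (−0.79 log2, SE 0.483, limma adjusted p = 0.270). Mgp (chromosome 6, 136872435 to 136875823) was at 10.1, 15.1 and 14.5 FPKM in WT and 13.9, 21.2 and 17.7 in the labelled knockout, and WT library 1, the highest for the collagens, was its lowest. The log2 difference was 0.39 (SE 0.211, limma adjusted p = 0.215). In MGCs Dcn was at 8.65, 7.34 and 7.19 and at 5.95, 6.64 and 9.38 FPKM, and Mgp at 45.2, 36.9 and 41.0 and at 37.5, 36.6 and 22.3 FPKM, with limma adjusted p of 0.932 and 0.654. For Mgp the difference between cell types was 0.76 (SE 0.318, 95% interval 0.07 to 1.46, limma adjusted p = 0.188).

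Acta2 (chromosome 19, 34241090 to 34255590, minus strand), the smooth muscle actin, had 51.5, 49.3 and 54.7 FPKM in WT MGCs, against 37.8, 27.5 and 36.2 FPKM in the labelled knockout. The groups did not overlap, and the labelled knockout mean was 65.3% of WT. The log2 difference was −0.61 (95% interval −0.97 to −0.26, limma adjusted p = 0.294), and −0.63 without library 3 of each genotype (limma adjusted p = 0.0586). In cumulus cells it was at 23.5, 5.65 and 12.8 FPKM and at 5.72, 21.1 and 15.1 FPKM, a log2 difference of 0.03 whose 95% interval ran from −1.20 to 1.26.

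By genotype in MGCs, limma called 0 of the 9 members tested, with Pdgfrb and Acta2 at an unadjusted p under 0.05. Limma-voom on reads, which Cyp17a1 and Acta2 could not enter, called 0 of all 13542 transcripts, so its lack of member calls adds little. Of all transcripts 9.20% were at an unadjusted p under 0.05 in MGCs and 38.2% in cumulus cells, the background for every such count. Of all 15279 transcripts 6 were called, or 0.0393% (0.0327% as lower and 0.00654% as higher), and 3 with the library number as a block. Without library 3 of each genotype limma called 477 or 3.09% of 15433 (1.85% as lower and 1.24% as higher), again with 0 members. The median log2 difference over the 9 was −0.38, against −0.00 over all transcripts, and −0.14 against −0.12 without library 3 of each genotype. In cumulus cells the median over the 6 tested was −0.55, against −0.06 over all transcripts. The genotypes did not overlap in MGCs for 2 of the 10 members, Pdgfrb and Acta2, where 16.9% of all transcripts did not.

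**Figure D4:**
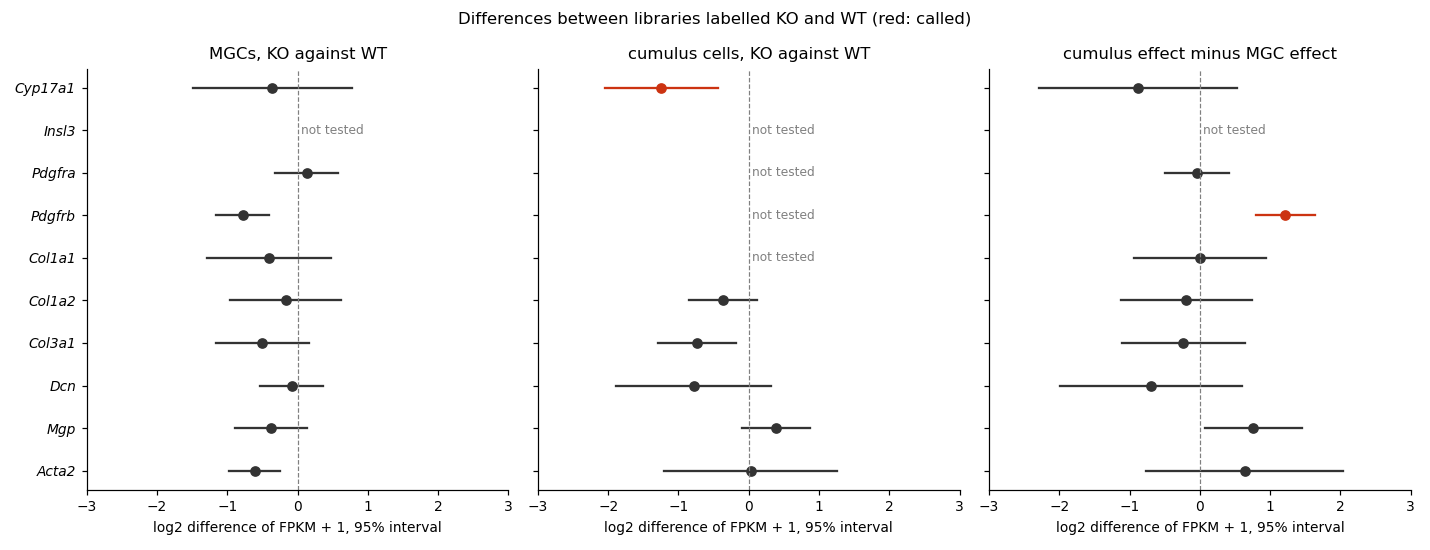
Log2 difference of FPKM + 1 (point) with its 95% interval (line) for each transcript, for the labelled knockout (KO) against WT in MGCs, the same in cumulus cells, and the cumulus difference minus the MGC difference; red marks a call. Cyp17a1 in cumulus cells (−1.24) and Pdgfrb in the last panel (1.22) are the ones called.

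In MGCs the 14 other transcripts of pericytes and smooth muscle summed to 32.3 to 40.4 FPKM in WT MGCs and 22.7 to 24.9 FPKM in the labelled knockout, without overlap. For 4 of the 14 (Abcc9, Cnn1, Mcam and Rgs5) the genotypes did not overlap, with the labelled knockout lower. Of all transcripts tested in MGCs, 9.17% were lower without overlap. Among the endothelial markers below 10 of 12 were, so the pattern was not particular to this list. Of the 13 tested, 11 had a negative log2 difference and 0 were called by limma (4 at an unadjusted p under 0.05), with a median of −0.36. Without library 3 of each genotype 1 of 12 was called, Myocd, a coactivator of smooth muscle genes (−1.53 log2, limma adjusted p = 0.00787), beside 3.09% of all transcripts. Mcam, an adhesion molecule of pericytes and endothelium, was at 9.59 to 10.8 FPKM in WT MGCs and 5.73 to 7.91 in the labelled knockout, and at 0.183 to 0.340 and 0.697 to 1.15 FPKM in WT and labelled knockout cumulus cells. It was the 1 of 13 called in the difference between cell types (1.09 log2, limma adjusted p = 0.0215), beside 3.93% of all transcripts. In cumulus cells the sum of the list overlapped, at 1.53 to 3.38 FPKM in WT and 1.66 to 3.33 in the labelled knockout. There 1 of the 14 was lower without overlap (Myh11, at 0.0839 to 0.262 and 0.0229 to 0.064 FPKM) and 1 was higher (Mcam). Of all transcripts tested in cumulus cells, 24.1% were lower and 18.2% higher without overlap. Rgs5 overlapped, at 0.0612 to 0.342 and 0 to 0.1 FPKM. Abcc9 and Smtn were higher in mean, at 0.0315 and 0.223 FPKM in WT and 0.117 and 0.453 in the labelled knockout. Myh11, Rgs5, Abcc9 and Smtn were under 0.5 FPKM in mean in both groups and were not tested. Actg2 and Smtn, of smooth muscle, were at 2.77 to 8.80 and 3.17 to 7.74 FPKM in MGCs and at 0 to 0.439 and 0.156 to 0.655 in cumulus cells.

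The 15 other fibroblast and stroma transcripts overlapped between the genotypes in MGCs in their sum, which Fbln1 leads. In the labelled knockout 4 of them (Col5a2, Col6a3, Lum and Ogn) were lower without overlap, beside 9.17% of all transcripts tested in MGCs. The 15 summed to 334 to 482 FPKM in WT and 331 to 380 in the labelled knockout, and limma called 0 of 13 tested (4 at an unadjusted p under 0.05). In cumulus cells 1 of 6 tested was called, as lower, beside 3.85% of all transcripts. It was Lum, a proteoglycan of collagen fibrils, at 4.90, 0.773 and 2.07 FPKM in WT and 0.455, 0.434 and 0.213 in the labelled knockout (−1.22 log2, limma adjusted p = 0.0498). Ogn and Col6a1, also of the matrix, were at 3.14 to 7.77 and 0.381 to 1.43 FPKM in WT and 1.52 to 2.19 and 0.0364 to 0.220 in the labelled knockout cumulus cells, with log2 differences of −0.996 and −0.755 that missed the fold change limit (limma adjusted p = 0.032 and 0.04). Nr2f2, a nuclear receptor of stroma, was at 1.45 to 2.03 and 2.86 to 4.82 FPKM (0.80 log2, limma adjusted p = 0.0188), also under that limit. Fbln1 was at 26.9 to 49.2 FPKM in WT and 51.8 to 63.5 in the labelled knockout (0.63 log2, limma adjusted p = 0.0765).

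Between the WT cell types these lists lay on the same side as the members. In WT cumulus cells 9 of 13 fibroblast and stroma transcripts (Col6a3, Bgn, Col5a2, Col5a1, Col6a2, Fbln1, Ogn, Fbn1 and Col6a1) and 8 of 13 of pericytes and smooth muscle (Kcnj8, Abcc9, Myh11, Mcam, Actg2, Smtn, Notch3 and Cnn1) were called as lower, with medians of −2.58 and −1.10. The same call was given to 14 of 17 collagen-processing transcripts and to 3 of 4 PDGF ligands. It was also given to 4 of 4 shared steroidogenic transcripts and 4 of 8 of the hedgehog pathway. Of all transcripts 33.3% were called as lower. None of these 6 lists had a call as higher, where 15.4% of all transcripts did. For Col6a3, Bgn, Col5a2, Col5a1, Col6a2, Kcnj8, Abcc9, Myh11, Actg2, Smtn, Notch3 and Cnn1 both cumulus groups were under 0.5 FPKM in mean. The same held for Loxl2, Pcolce and Hhip of the other lists. All of these entered the test through MGCs alone, which favours a lower value, so their calls add little.

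Hedgehog ligands are made by granulosa cells and act on the theca. In cumulus cells Ihh rose from 27.4, 32.8 and 44.0 FPKM in WT to 71.3, 101 and 123 FPKM in the labelled knockout (1.47 log2, limma adjusted p = 0.00584), and Dhh fell by 1.23 on the log2 scale, from 2.85 to 4.24 FPKM down to 0.471 to 1.28 (limma adjusted p = 0.00563). They were the 2 called of 6 tested, beside 8.04% of all transcripts (4.19% as higher and 3.85% as lower). In MGCs Ihh was at 50.9 to 70.0 and 93.1 to 132 FPKM (0.86 log2, limma adjusted p = 0.227), and limma called 0 of 8 (1 at an unadjusted p under 0.05). Smo, which passes on the signal, was at 13.7 to 30.9 FPKM in MGCs and 3.79 to 5.96 in cumulus cells.

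Markers of other cell types moved with several of these results, and their part in them was not tested. The 12 endothelial transcripts summed to 19.7 to 23.7 FPKM in WT MGCs and 11.3 to 14.0 in the labelled knockout, beside the lower Pdgfrb and Acta2. For 10 of the 12 the labelled knockout was lower without overlap, beside 9.17% of all transcripts tested in MGCs. Of the 10 tested, all had a negative log2 difference and limma called 0 (6 at an unadjusted p under 0.05). Cdh5, an adhesion molecule that defines endothelium, was at 5.53 to 7.39 and 4.83 to 5.53 FPKM. Esam and Kdr were at 2.27 to 2.83 and 1.97 to 2.09 FPKM in WT and 1.08 to 1.65 and 0.747 to 1.84 in the labelled knockout. Cldn5 and Tie1 were called in the difference between cell types (1.10 and 0.73 log2, limma adjusted p = 0.0157 and 0.0418), where every cumulus library was at or below 0.143 FPKM for the first and 0.0232 FPKM for the second. In cumulus cells the endothelial sum was 1.25 to 2.22 FPKM in WT and 0.640 to 0.904 in the labelled knockout, where 4 to 5 of the 12 transcripts were at 0 in each library, Tie1 among them.

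Leukocyte markers (12) summed to 179 to 343 FPKM in WT MGCs and 33.1 to 183 in the labelled knockout. In cumulus libraries 1, 2 and 3 they summed to 57.3, 5.87 and 12.8 FPKM in WT and 54.8, 12.4 and 72.7 in the labelled knockout. Lyz2, S100a9 and S100a8 led them in mean level. Cd14, C1qb and C1qa were called as higher and S100a9 as lower in the labelled knockout cumulus cells, 4 of 8 tested beside 8.04% of all transcripts, and Cd14 in the difference between cell types (2.51 log2, limma adjusted p = 0.031). In MGCs limma called 0 of 11 (2 at an unadjusted p under 0.05). Without library 3 of each genotype it called C1qa, C1qb and C1qc as higher and S100a8 and S100a9 as lower, beside 3.09% of all transcripts. Red cell markers (Hbb-bs, Hba-a1 and Hbb-bt the highest) summed to 262 to 404 FPKM in WT MGCs and 291, 230 and 30.6 in labelled knockout libraries 1, 2 and 3. In cumulus cells they summed to 26.8, 4.37 and 20.7 FPKM in WT libraries 1, 2 and 3, the order that Cyp17a1 and the collagens have there, and to 0.300 to 1.78 FPKM in the labelled knockout. Of those, Alas2 was called as lower (−1.99 log2, limma adjusted p = 0.000771), 1 of 4 tested beside 3.85% of all transcripts, and no globin was called. Across the WT cumulus libraries Alas2 did not follow the globins. In WT cumulus libraries 1, 2 and 3 it was at 4.39, 4.03 and 4.41 FPKM, against 12.9, 0.274 and 8.98 for Hba-a1. In WT MGCs Alas2 was at 2.91 to 4.84 FPKM and Hba-a1 at 95.5 to 154. Hba-a1 and Hbb-bs had means of 7.39 and 4.87 FPKM in WT cumulus cells and 0.316 and 0.287 in the labelled knockout. In limma 4 of 4 red cell markers were at an unadjusted p under 0.05 there, beside 38.2% of all transcripts. What lies behind the call of Alas2 was not tested.

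Oocyte transcripts (Gdf9, Zp3 and Zp2 the highest of 9) summed to 40.8, 101 and 65.4 FPKM in WT MGCs and 29.3, 94.0 and 119 in the labelled knockout. In cumulus cells they summed to 2.29 to 5.83 FPKM in WT and 1.41 to 2.00 in the labelled knockout. The 6 surface epithelium transcripts (Upk3b, Msln and Krt19 the highest) summed to 26.9 to 38.2 and 19.4 to 28.1 FPKM in MGCs and to 0.139 to 1.52 FPKM in cumulus cells. In MGCs 4 of the 6 were lower in the labelled knockout without overlap, beside 9.17% of all transcripts tested. By genotype limma called 0 transcripts of the oocyte list in either cell type (0 and 2 at an unadjusted p under 0.05) and 0 of the surface epithelium list in MGCs (2 at an unadjusted p under 0.05).

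**Figure D5:**
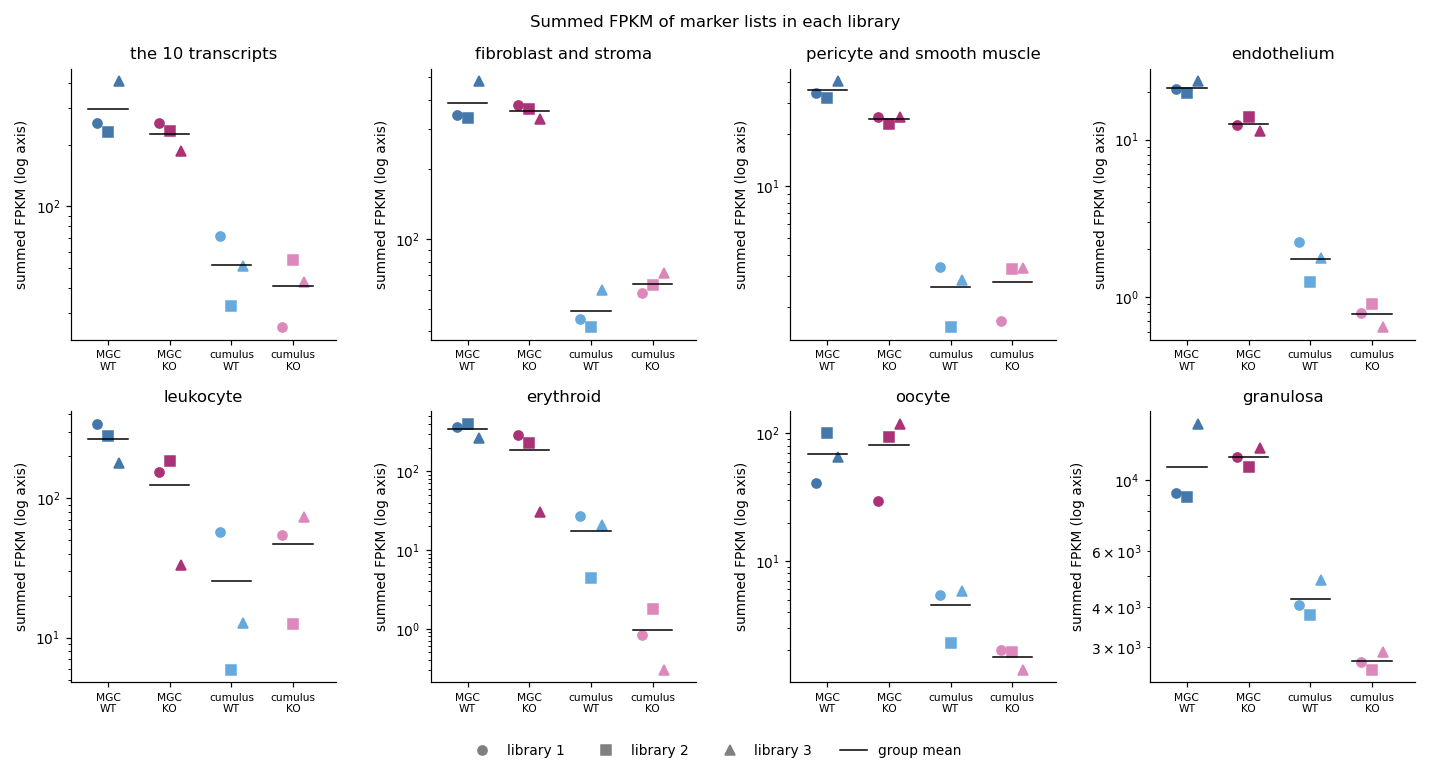
Summed FPKM (log axis) of the 10 follicle wall transcripts and of marker lists of fibroblasts and stroma, pericytes and smooth muscle, endothelium, leukocytes, red cells, oocyte and granulosa cells in each library; symbols are libraries 1 to 3 and lines are group means. Pericyte and endothelial sums are lower in KO than in WT MGCs without overlap, and red cell markers in KO MGC library 3 sum to 30.6 FPKM.

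Of the granulosa transcripts themselves (Inha, Inhba and Hsd17b1 the highest), limma called Cyp19a1, Inhba, Nr5a2 and Hsd17b1 as lower in the labelled knockout cumulus cells, 4 of 8 beside 3.85% of all transcripts, and 0 of 8 in MGCs (0 at an unadjusted p under 0.05). Cyp19a1, Nr5a2 and Hsd17b1 were also called as lower in the difference between cell types. Tnfaip6 and Ptx3 of cumulus expansion were called as higher in the labelled knockout cumulus cells, 2 of 4 beside 4.19% of all transcripts, and Ptgs2 was not.

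The genes most like 3 of the members across the 12 libraries were found by the root mean square difference of centred log2(FPKM + 1), among genes of at least 1 FPKM on average. This is a description, as the libraries share their cell type and depth. Col1a1 was nearest to Col1a2 (0.240), then Pappa, Aebp1, Tmem132a and Aes, out to 0.310. Pdgfrb was nearest to Tspan5 (0.185), then Cyp4f13, Olfml2a, Wwc2 and Pde4dip, out to 0.228. For Cyp17a1 the distances were larger, from Ptger4 (0.369) over Prlr, Gm24752 and Me1 to Ccng2 (0.443).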

How the data were processed

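The authors deposited FPKM values, from reads aligned with HISAT2 to GRCm38 per the submitters' processing notes, in 1 table per cell type; the counting tool, annotation and scaling are not given in the sources used here. Libraries were made from total RNA with a kit that does not mark strand. All 12 libraries were assigned by their labels, and 0 columns were left unused. Symbols and positions came from GENCODE M21 (GRCm38), which lacks 64 MGC and 66 cumulus genes; 26382 genes are in both tables. The product of FPKM and exon length gave whole reads (within 0.02) for 90.6% to 92.1% of values above 0, though not for Cyp17a1 and Acta2, so read counts are given for the other members. Intervals and floors cover counting error or library spread only.

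As the files hold FPKM, a test for counts was not used. Limma 3.58.1 (R 4.3.3, trend) was fitted on log2(FPKM + 1) within each cell type and, for cell type contrasts, over all 12 libraries. Genes were tested if their mean reached 0.5 FPKM in either group of a cell type or, for cell type contrasts, in any of the 4 groups. For those contrasts some genes passed through their MGC level alone, which favours a lower value in cumulus cells. Calls needed a fold change of 2 or more and an adjusted p (Benjamini-Hochberg) up to 0.05 (for the difference between cell types, the adjusted p alone). Fold changes on this scale understate those of low transcripts. On simulated tables the code recovered the changed genes. Those tables had large changes, in genes away from the floor, and a capped spread. They check the code and give no measure of power in these data. The members and lists were chosen with earlier results of these data known. All members are named. Of each other list the genes called by genotype or in the difference between cell types and the 3 highest in mean are named; calls between WT cell types are named for 2 lists and counted for the rest. Nr2f2, Myh11, Rgs5, Myocd and the transcripts named for not overlapping in MGCs were chosen after their values were seen. The CArG rule was set after its matches were seen. Libraries of the same number correlated after removal of group means at 0.220, 0.158 and 0.224 in MGCs and at −0.148, −0.0511 and 0.115 in cumulus cells. The MGC values were taken as a pairing from the data. Those of unlike number ran from −0.232 to 0.155 in MGCs. The highest was WT library 1 with labelled knockout library 2, so the pairing hardly tells libraries 1 and 2 apart. Alternatives were the pseudocount, filters on low values, quantile and median scaling, a replicate block, limma-voom on reads, no fold change limit and leaving out libraries.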

Additional observations from a re-analysis of the deposited data

Results flagged for a closer look

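The knockout difference of Pdgfrb went in opposite directions in the cell types, and a test of the difference itself passed the threshold. On the log2(FPKM + 1) scale the difference in cumulus cells minus that in MGCs was 1.22 (SE 0.191, limma adjusted p = 0.00987). All 3 labelled knockout MGC libraries lay below all 3 WT libraries, and all 3 labelled knockout cumulus libraries lay above their WT libraries. The cumulus values rest on 6 to 10 reads per WT library and 34 to 76 per labelled knockout library. Both cumulus groups were under 0.5 FPKM, so Pdgfrb entered the test of the difference through MGCs alone. In each cell type alone the limma adjusted p was 0.202 (MGCs) and, with no filter on low values, 0.125 (cumulus cells).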

How the results depend on the processing

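The cause of the changes below was not tested. By genotype in MGCs limma called 6 genes. It called 1 without a filter, with a filter of 5 FPKM, after quantile normalization and after median scaling, 3 with the replicate block, 0 with limma-voom, 477 without library 3 of each genotype, and 0 to 170 with 1 library left out (170 without labelled knockout library 3). In cumulus cells the 1 member called, Cyp17a1, became 0 without a filter and with the replicate block, and 0 to 1 with 1 library left out. Of all genes 981 were called there, 1674 with a pseudocount of 0.1, 1733 with limma-voom and 2725 without a fold change limit. The difference between cell types called 624 genes, 327 without a filter, 379 with limma-voom, 2474 without MGC library 3 of each genotype and 108 to 1189 with 1 library left out. The member called there, Pdgfrb, gave 0 at 5 FPKM, where it was not tested. Between the WT cell types 7733 genes were called, and 12156 without a fold change limit.

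The direction turned for these values, with fits that left out 1 library given as a range. In MGCs Cyp17a1 was at 0.49 without library 3 of each genotype and at −0.62 to 0.12 with 1 library left out. The ranges in MGCs were −0.619 to 0.0128 for Col1a1, −0.392 to 0.18 for Col1a2, and −0.256 to 0.0336 for Dcn, with the turn without WT library 3 for the collagens and without labelled knockout library 1 for Dcn. In cumulus cells Acta2 ran from −0.461 (without WT library 2) to 0.524. In the difference between cell types Pdgfra was at 0.25 with a pseudocount of 0.1, 0.50 with limma-voom and −0.167 to 0.0418 with 1 library left out. Col1a1 was at −1.08 with a pseudocount of 0.1, −0.0264 after quantile normalization, −1.91 with limma-voom, −0.22 without MGC library 3 of each genotype and −0.415 to 0.217 with 1 library left out. The ranges were −0.542 to 0.0294 for Col1a2 and −0.565 to 0.0079 for Col3a1. Of these only Cyp17a1 without library 3 of each genotype reached a limma adjusted p under 0.05 (0.0307), under the fold change limit.

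Between the WT cell types the 9 members stayed lower in all alternatives in which they were tested. The call of Dcn was lost with a pseudocount of 0.1 (−1.27, limma adjusted p = 0.0546), without a filter, with the replicate block (limma adjusted p = 0.0891) and in 8 of the fits that left out a library, for example −0.48 without WT cumulus library 2. The replicate block changed no other member call than those of Dcn and Cyp17a1. In cumulus cells, where the numbers do not pair the libraries by the correlations above, the block is shown as an alternative only. Depth limits Insl3 in MGCs and Pdgfra, Pdgfrb and Col1a1 in cumulus cells, where libraries held at most 76 reads.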
